A study of Homo sapiens with 6 samples.

Results

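The genes described here carry the interferon signal from the cell surface to the nucleus: the transcription factor IRF9, its partner STAT2, the interferon regulatory factors IRF1, IRF3 and IRF7, the Janus kinases JAK1 and TYK2, and the receptor chains IFNAR1 and IFNAR2. A549, a line grown from a human lung adenocarcinoma, was studied by transcript profiling with 6 arrays of the Affymetrix HG-U133 Plus 2.0 type. On 3 of them NME2, a nucleoside diphosphate kinase that also binds DNA, had been transiently silenced with a small interfering RNA (siRNA) duplex, and on 3 the cells had received control duplexes. By this account all cells were transfected with duplex RNA, and no interferon treatment is named. The paper also describes a stable NME2-depleted A549 line made with short hairpin RNAs, under its nucleosome analysis. The sample titles do not name the kind of depletion. The sources differ on the supplier of the siRNA, and none gives an untransfected group, the duplex sequences or the time between transfection and harvest. Members were all probe sets (groups of short oligonucleotides that measure 1 transcript) whose platform annotation gives 1 symbol, that of one of the 9 genes. This gave 18 of 54613 probe sets, for 8 of the 9 genes. The annotation used here names no probe set for STAT2, which was therefore not analysed here, and a probe set annotated to both RNF31 and IRF9, which are neighbours on chromosome 14, was left out. Of the 18 probe sets 17 passed the filter on dim signals, set at a signal of 71.7, and the last, 240613_at for JAK1, lay between 12.3 and 42.7 on all arrays.

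Type I interferons bind a receptor made of IFNAR1 and IFNAR2, to which the kinases TYK2 and JAK1 are attached. The kinases phosphorylate STAT proteins, among them STAT2, which joins IRF9 in ISGF3, a complex that binds the interferon-stimulated response element (ISRE) of antiviral genes. STAT dimers bind a different element, the gamma-activated site (GAS), and IRF1, IRF3 and IRF7 bind ISRE-like sites, IRF3 and IRF7 being the factors that turn on interferon genes after a virus or foreign RNA is sensed. IRF7, IRF9, IRF1 and STAT genes are themselves interferon-induced, whereas IRF3, JAK1, TYK2 and the receptor chains are present in most resting cells.

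The promoters of IRF9 and IRF1 are shown because, of the members with a promoter window, they were the pair that held either element. Windows of 250 bases before to 50 bases after the gene start, from RefSeq on GRCh38.p14, matched 6 of the 9 genes with 9 windows. IRF3, IRF7 and IFNAR2 had no window, so their promoters were not searched. Both strands were searched for the ISRE core, spelled GAAA, any 2 bases and GAAA again (TTTC, any 2 bases and TTTC on the other strand), and the GAS core TTCNNNGAA, which reads the same on both strands, and matches of the 2 elements could overlap. The GAS core was found in 2 of the 9 windows and the ISRE core in 0 of 9, against 7.66% and 3.57% of all 35116 windows. The 250 bases before the start are given 5′ to 3′, with the GAS core in capitals, for IRF9 at chr14:24161015-24161264 on the plus strand and for IRF1 at chr5:132490774-132491023 on the minus strand.
IRF9: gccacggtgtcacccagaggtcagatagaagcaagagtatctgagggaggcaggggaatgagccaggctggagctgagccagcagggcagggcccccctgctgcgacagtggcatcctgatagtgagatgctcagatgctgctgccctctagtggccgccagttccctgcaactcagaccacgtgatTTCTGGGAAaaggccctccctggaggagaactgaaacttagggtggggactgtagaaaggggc
IRF1: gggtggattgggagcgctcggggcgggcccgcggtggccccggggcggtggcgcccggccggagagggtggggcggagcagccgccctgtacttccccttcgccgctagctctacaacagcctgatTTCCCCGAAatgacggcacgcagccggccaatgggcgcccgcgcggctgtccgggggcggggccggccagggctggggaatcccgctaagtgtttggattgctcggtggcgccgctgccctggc
The core lay 63 to 55 bases before the start of IRF9 and 124 to 116 bases before that of IRF1. A match describes these letters and not binding in these cells.

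The arrays matched their labels. The NME2 probe set, which also carries the read-through transcript NME1-NME2, had signals of 1920, 3676 and 3216 in NME2-depleted cells and of 17862, 19389 and 21044 in control cells. KRT18, an epithelial keratin, had a mean signal of 30769 in control cells, and the leukocyte marker PTPRC stayed at or under 37.1 on every array. Some other leukocyte markers were brighter, with mean control signals of 300 for CD14 and 232 for CD79A. The 6 epithelial markers summed to 74012 to 81010 in NME2-depleted and 75537 to 82809 in control arrays, a sum that the keratins KRT7, KRT8 and KRT18 dominate. By limma 0 of the 6 passed the threshold and 3 had an unadjusted p under 0.05, where 0.54% and 15% of all tested genes did. Without overlap 2 of the 6 were higher and 1 was lower, where 10.4% and 10.1% of all tested genes were. EPCAM, an adhesion protein of epithelia, had 0.71 (adjusted p = 0.0884) and CDH1, E-cadherin, 0.21 (adjusted p = 0.324), both higher without overlap, and KRT8 had -0.24 (adjusted p = 0.209), lower without overlap. The 5 of 10 listed leukocyte markers that passed the filter summed to 628 to 805 in NME2-depleted and 689 to 863 in control arrays, and 4 of 7 fibroblast markers to 875 to 1142 and 795 to 1077. None of the latter 9 genes passed the threshold by limma, although 1 had an unadjusted p under 0.05, against the same 15% of all tested genes. The ratio of 3′ to 5′ signal of ACTB, a sign of RNA quality, was 1.33, 1.34 and 1.40 in NME2-depleted and 1.20, 1.30 and 1.23 in control arrays (exact two-sided permutation test, p = 0.1, the smallest that 3 against 3 arrays allow). That of GAPDH overlapped between groups (exact permutation p = 0.5). Control replicate 1 stood apart in interferon-induced genes, as described below, and the part of RNA quality in these values was not tested.

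IRF9 and IRF7 had the largest differences among the members, both lower in NME2-depleted cells, TYK2 and IRF3 were slightly lower on all 3 depleted arrays, and JAK1, IFNAR2 and most probe sets of IFNAR1 lay within the spread between arrays. The members were chosen with the difference between these groups known, so their values are a description and are given without p-values. A difference here is the mean log2 signal of NME2-depleted arrays less that of control arrays, and SE is its standard error from limma. In these bulk samples fewer cells that make a transcript cannot be told apart from less of it per cell. Of the 17 tested member probe sets 10 had the lower mean in NME2-depleted cells (47.5% of all 27307 tested probe sets had). Only that of IRF9, 1 of 17 or 5.88%, was past an adjusted p of 0.05, where 0.396% of all were (0.278% lower and 0.117% higher). The groups did not overlap, with NME2-depleted arrays lower, for 5 of the 17, where 8.91% of all tested probe sets behaved so. For 0 of the 17 they were higher without overlap, where 9.66% of all were. With each gene taken at its brightest tested probe set, 6 of the 8 genes had a lower mean, as had 49.8% of the 12406 genes tested. For 4 of the 8 genes all depleted arrays were the lower ones and for 0 of 8 the higher ones, where 10.1% and 10.4% of all tested genes were, and 1 of 8 was called (lower), where 0.395% of all were called lower and 0.145% higher. The median difference was -0.21, and -0.17 without control replicate 1, against 0.00064 over all tested genes. Over the 17 tested probe sets it was -0.10, and 0.0043 without control replicate 1.

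**Figure D1:**
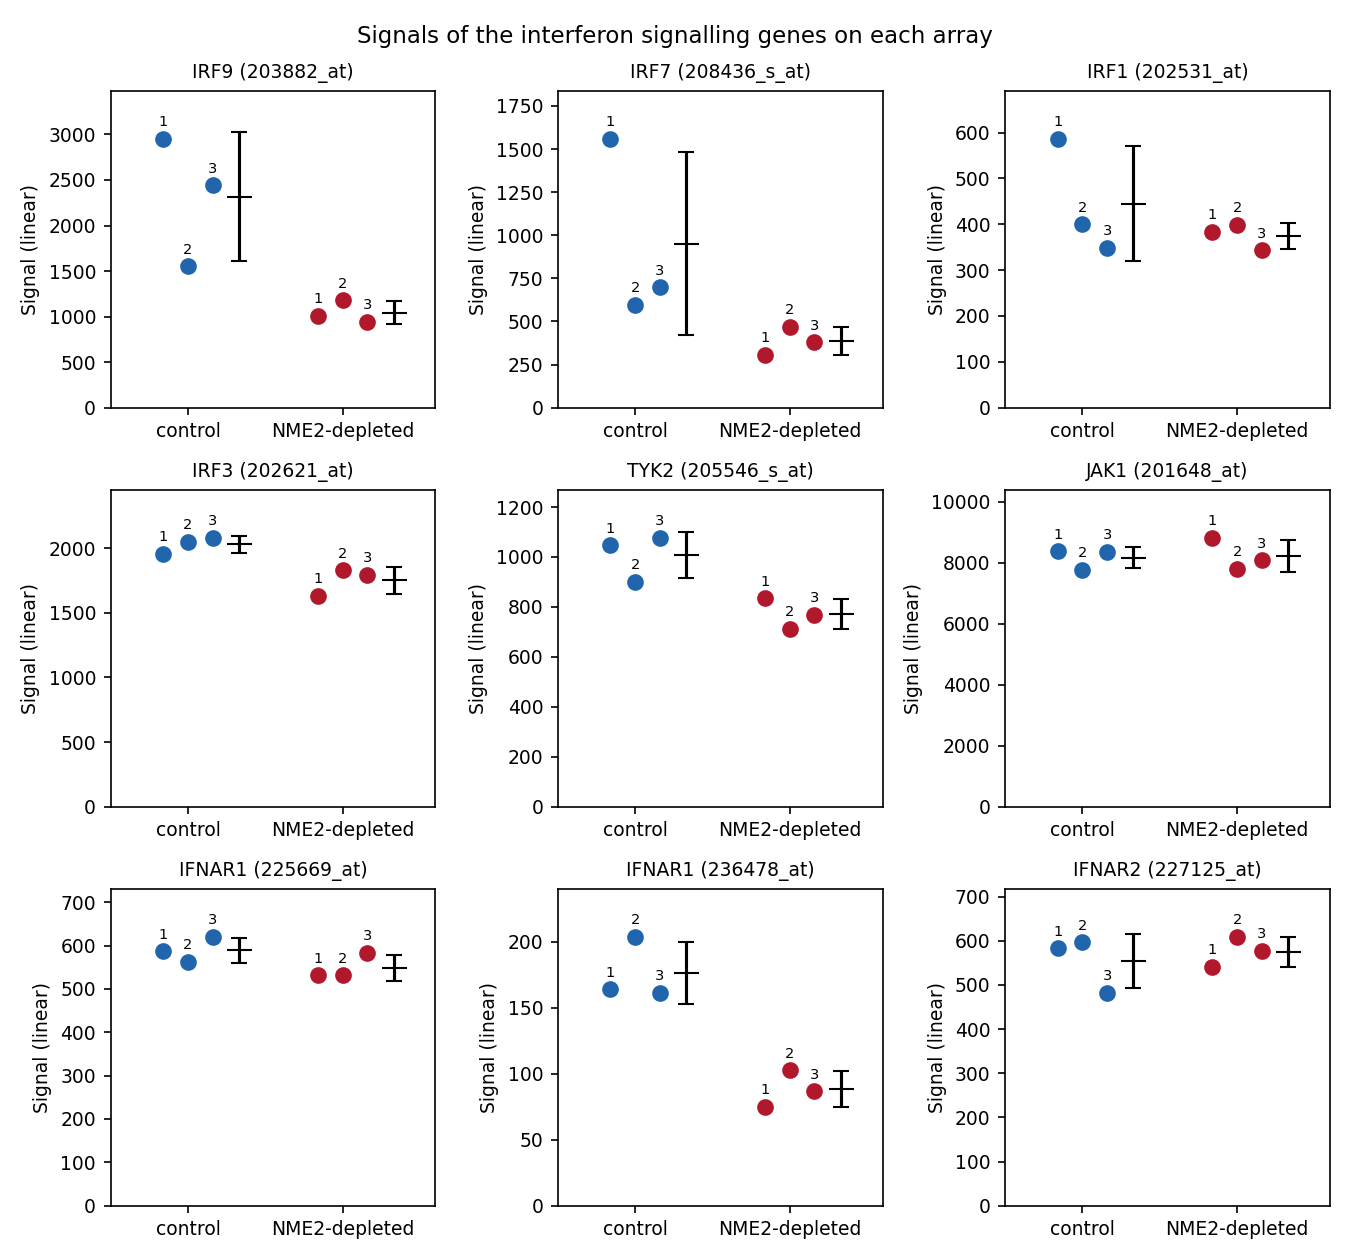
Signals of the interferon signalling genes on each array. The vertical axes are linear array signals that start at 0, numbered points are replicates, and each bar is a mean with its SD over the 3 arrays of a group. The depleted arrays lie below all control arrays for IRF9, IRF7, IRF3, TYK2 and 1 of the 2 IFNAR1 probe sets drawn, and control replicate 1 is the highest for IRF9, IRF7 and IRF1.

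IRF9, the DNA-binding subunit of ISGF3, had signals of 1010, 1180 and 943 in NME2-depleted cells and of 2951, 1554 and 2443 in control cells. All depleted arrays lay below all control arrays, and the control arrays were spread far more widely. The means were 1045 ± 122 and 2316 ± 707 (SD, n = 3 each), and the log2 difference was -1.11 (SE 0.19), which is 2.15-fold lower. Control replicate 1 was the highest, 1.51-fold above the mean of the other two, and without it the difference was -0.91, or 1.87-fold. The call depended on the arrays used. With each of the 6 arrays left out in turn, IRF9 stayed past the threshold only without control replicate 2 (-1.37) and missed it without NME2-depleted replicate 1 (-1.08), 2 (-1.20) or 3 (-1.03) and without control replicate 1 (-0.91) or 3 (-1.04). Its probe set is the 1 that the annotation gives to IRF9 alone. The probe set annotated to both RNF31 and IRF9 was left out by the rule, so none was set beside it.

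IRF7, the interferon-induced factor that drives production of further type I interferon, showed the same order of groups with more scatter. Its signals were 306, 470 and 380 in NME2-depleted cells and 1559, 598 and 698 in control cells. Control replicate 1 stood far above the rest, at 2.41-fold the mean of the other control arrays, yet these too lay above all depleted arrays. The log2 difference was -1.19 (SE 0.30), 2.28-fold, and without control replicate 1 it was -0.77, or 1.70-fold. It did not pass the threshold with all 6 arrays or with any of them left out.

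IRF1, an interferon-induced activator of antigen presentation genes whose promoter is shown above, had overlapping groups on both its probe sets. Its brighter probe set, 202531_at, had 383, 398 and 344 in NME2-depleted cells and 586, 400 and 349 in control cells. Control replicate 1 was high, control replicate 2 lay just above the highest depleted array and control replicate 3 lay among the depleted ones. The log2 difference of -0.21 (SE 0.18) became 0.0043 without control replicate 1. The dimmer probe set, 238725_at, had 268, 297 and 189 against 426, 336 and 262. Control replicates 1 and 2 lay above all depleted arrays and replicate 3 did not, and its difference went from -0.44 (SE 0.22) to -0.27 without control replicate 1.

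IRF3, the factor that is present before infection and is activated by phosphorylation, did not follow control replicate 1. It had 1630, 1827 and 1792 in NME2-depleted cells and 1956, 2051 and 2079 in control cells, where replicate 1 was the lowest of the control arrays. The groups did not overlap and the difference was small, at -0.21 (SE 0.08), or 1.16-fold, and -0.24 without control replicate 1. The probe set did not pass the threshold.

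**Figure D2:**
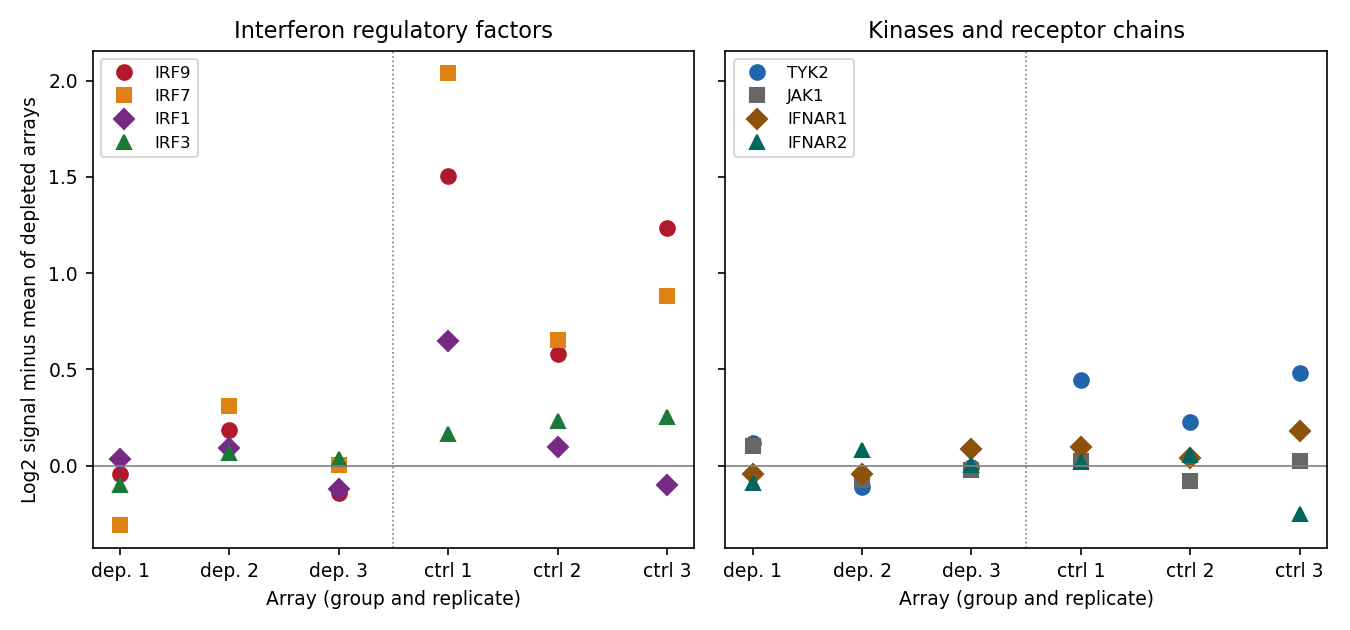
Log2 signal of each gene's brightest probe set on the 6 arrays, minus its mean over the NME2-depleted arrays. Each point is 1 array, interferon regulatory factors are on the left, kinases and receptor chains on the right. In control replicate 1 IRF7 is at 2.04 and IRF1 at 0.65, whereas IRF3 is at 0.16, JAK1 at 0.03 and IFNAR2 at 0.02.

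The 2 kinases behaved differently. TYK2, which docks on IFNAR1, had 835, 714 and 768 in NME2-depleted cells and 1047, 901 and 1076 in control cells. All depleted arrays lay below all control arrays, control replicate 1 was not the highest, and the log2 difference was -0.38 (SE 0.11), or 1.30-fold. Without control replicate 1 it was -0.35, and it did not pass the threshold. JAK1, which docks on IFNAR2, was alike in both groups, with 8815, 7797 and 8077 against 8371, 7770 and 8362. Its difference was 0.0097 (SE 0.07), and the groups overlapped for all 5 JAK1 probe sets. The other 3 tested ones had differences of -0.0022, -0.13 and 0.10, and the dim one 0.10.

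**Figure D3:**
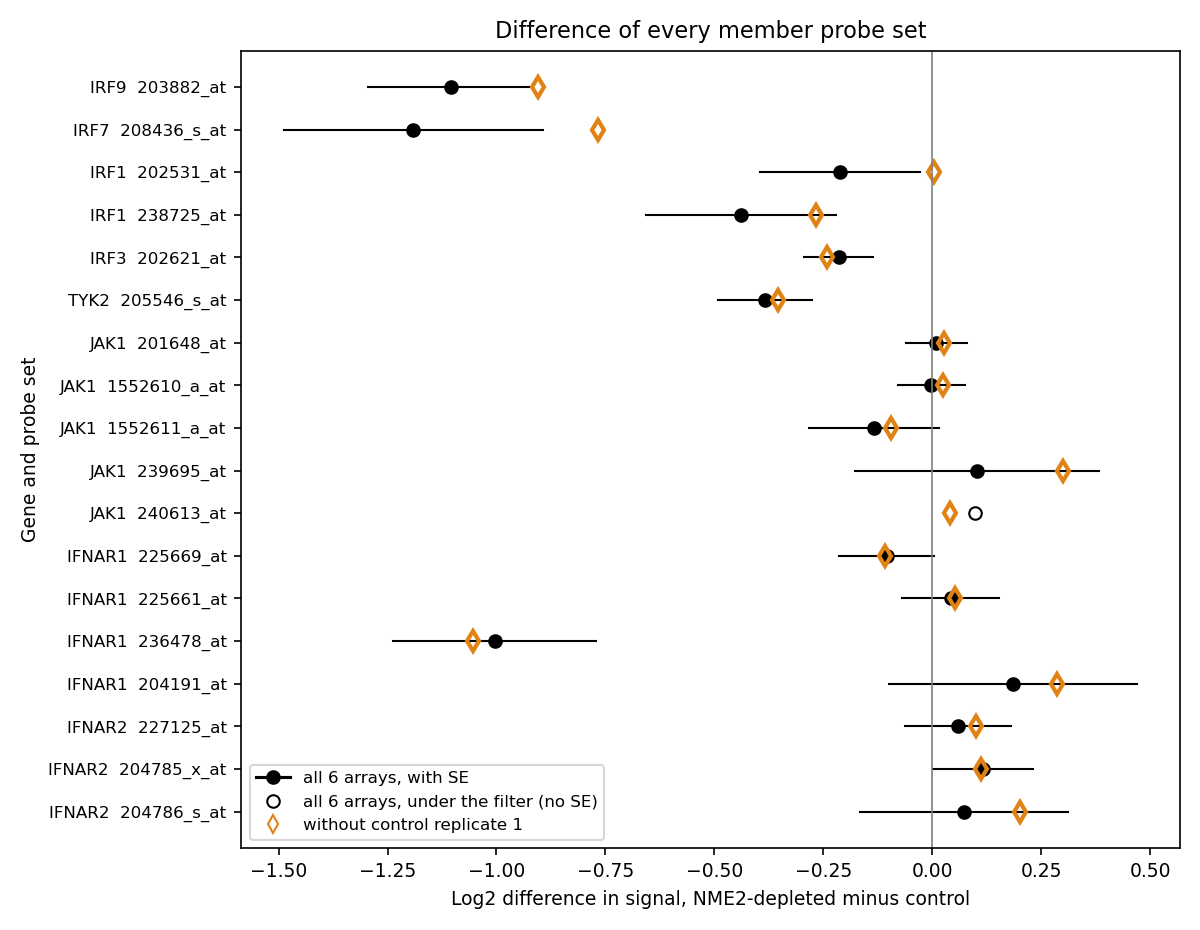
Log2 difference, NME2-depleted minus control, of all 18 member probe sets. Filled points use 6 arrays, with lines for the SE, the open point is the dim JAK1 probe set, and diamonds leave out control replicate 1. IRF9 moves from -1.11 to -0.91, IRF7 from -1.19 to -0.77 and IRF1 (202531_at) from -0.21 to 0.0043, whereas IRF3, TYK2 and the IFNAR1 probe set at -1.004 move by less than 0.05.

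The receptor chains showed 1 probe set out of step with its gene. IFNAR1, the chain that carries TYK2, has 4 probe sets, and 236478_at had 75.1, 102 and 86.7 in NME2-depleted cells and 164, 204 and 161 in control cells. The groups were well apart, with a log2 difference of -1.004 (SE 0.23), or 2.01-fold, and -1.05 without control replicate 1. Its depleted signals lay just above the filter, and an offset of 50 before log2 gave -0.71. The brightest IFNAR1 probe set, 225669_at, had 531, 532 and 583 against 586, 562 and 620, so its groups overlapped, with a difference of -0.10 (SE 0.11). The other 2, 225661_at and 204191_at, had differences of 0.04 (SE 0.11) and 0.19 (SE 0.28), also with overlap. Whether it measures a separate IFNAR1 transcript is not stated by the annotation. IFNAR2, the chain that carries JAK1, had 541, 609 and 577 in NME2-depleted cells and 583, 596 and 483 in control cells. Its arrays were intermixed, the difference was 0.06 (SE 0.12), and its other 2 probe sets had 0.12 and 0.07.

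On chromosome 21 the coding genes IFNAR2, IL10RB, IFNAR1 and IFNGR2 follow each other, with a read-through transcript of the first pair, and the 4 chains were not lower together. IL10RB, the shared chain of the interferon lambda and interleukin 10 receptors, had 1081, 1263 and 1083 in NME2-depleted cells and 958, 961 and 848 in control cells. All its depleted arrays were the higher ones, with a difference of 0.31 (SE 0.10), which missed the threshold by limma (adjusted p = 0.23). IFNGR2, a chain of the interferon gamma receptor, had 0.10 (adjusted p = 0.693), IFNGR1, on another chromosome, -0.18 (adjusted p = 0.635) and IFNLR1 0.17 (adjusted p = 0.797). Without control replicate 1 those of IFNGR1 and IFNLR1 were 0.0040 and 0.015. The other IFNGR1 probe set had -0.35 (adjusted p = 0.261), and -0.22 without that array.

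Interferon transcripts themselves were near the lower end of the signal range. Of 17 type I and III interferon genes with a probe set 15 were under the filter, among them IFNB1, which reached at most 40.7, and IFNL1, which reached 91.7. IFNE and IFNA17 passed the filter, with differences of 0.30 and 0.39 (limma adjusted p = 0.715 and 0.756), and both had overlapping groups. Without control replicate 1 the difference of IFNE was -0.025 and that of IFNA17 0.36. IFNG, the type II interferon, reached at most 42.5. A dim signal is not a statement that a transcript was absent.

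Of 62 other genes of the pathway listed by role, 57 had a probe set and 41 passed the filter. By limma 0 of these 41 passed an adjusted p of 0.05 in either direction, where 0.54% of all tested genes did. An unadjusted p under 0.05 was found for 3 of the 41 and for 15% of all tested genes. The median difference was -0.05, and 24 had a lower mean. Among negative regulators, 13 genes, USP18 stood apart. USP18 removes ISG15 from proteins and blocks the receptor at IFNAR2, and is itself interferon-induced. It had 310, 401 and 347 in NME2-depleted cells and 1100, 564 and 587 in control cells. As for IRF7, all depleted arrays were below all control arrays and control replicate 1 was the highest. The difference was -1.03 (SE 0.23, limma adjusted p = 0.0884) and, without control replicate 1, -0.71. The SUMO ligases PIAS4 and PIAS1 had -0.38 and 0.17 (adjusted p = 0.475 and 0.594), and CISH, a feedback inhibitor of cytokine receptors, 0.20 (adjusted p = 0.645). The 2 tested probe sets of CISH disagreed, since this one had all depleted arrays above all control arrays and the other all below, with -0.76 (adjusted p = 0.239). SOCS1, the main feedback inhibitor of JAK kinases, had -0.31 (SE 0.28, adjusted p = 0.696) at signals between 63.3 and 110.

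Other STATs and Janus kinases, 7 genes, lay between -0.24 and 0.02 with overlapping groups at each gene's brightest probe set. STAT3, which transmits interleukin 6 signals, had -0.19 (SE 0.09, limma adjusted p = 0.412), and another of its probe sets was lower without overlap (-0.17, adjusted p = 0.353). STAT5B had 0.02 (adjusted p = 0.971) at its brightest probe set and 0.34 (adjusted p = 0.249), higher without overlap, at another. STAT5A, STAT6 and STAT4 had -0.24, -0.11 and -0.16 (adjusted p = 0.588, 0.59 and 0.612). Other interferon regulatory factors and their binding proteins, 7 genes, were also mixed. IRF2BP1, a corepressor of IRF2, had -0.38 (adjusted p = 0.615), IRF2BPL 0.10 (adjusted p = 0.685) and IRF2, a repressor that competes with IRF1, -0.12 (adjusted p = 0.738). IRF5, a factor of inflammatory gene induction, had probe sets that disagreed. The brightest had 0.18 (adjusted p = 0.678) with overlap, another -0.15 (adjusted p = 0.789) with overlap, and the dimmest 89.4, 57.0 and 45.0 in NME2-depleted and 136, 123 and 151 in control cells. That last difference of -1.16 (SE 0.31, adjusted p = 0.136) came with depleted signals mostly under the filter, so that it passed through the control group. Among kinases, importins and coactivators, 8 genes, CREBBP, a histone acetyltransferase that works with STATs and IRF3, had 1642, 1708 and 1439 in NME2-depleted cells and 1961, 2370 and 2152 in control cells. Its groups did not overlap, and its difference of -0.44 (SE 0.10) missed the threshold (limma adjusted p = 0.0894). The other 2 CREBBP probe sets had overlapping groups and differences of -0.28 and 0.30 (adjusted p = 0.744 and 0.557). The arginine methyltransferase PRMT1 and the importin KPNA3 had 0.14 and 0.09 (adjusted p = 0.585 and 0.647). KPNA4, another importin, had -0.09 (adjusted p = 0.622) with overlap at its brightest probe set, and its other 3 were lower without overlap, with -0.19, -0.25 and -0.42 (adjusted p = 0.304, 0.306 and 0.143).

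**Figure D4:**
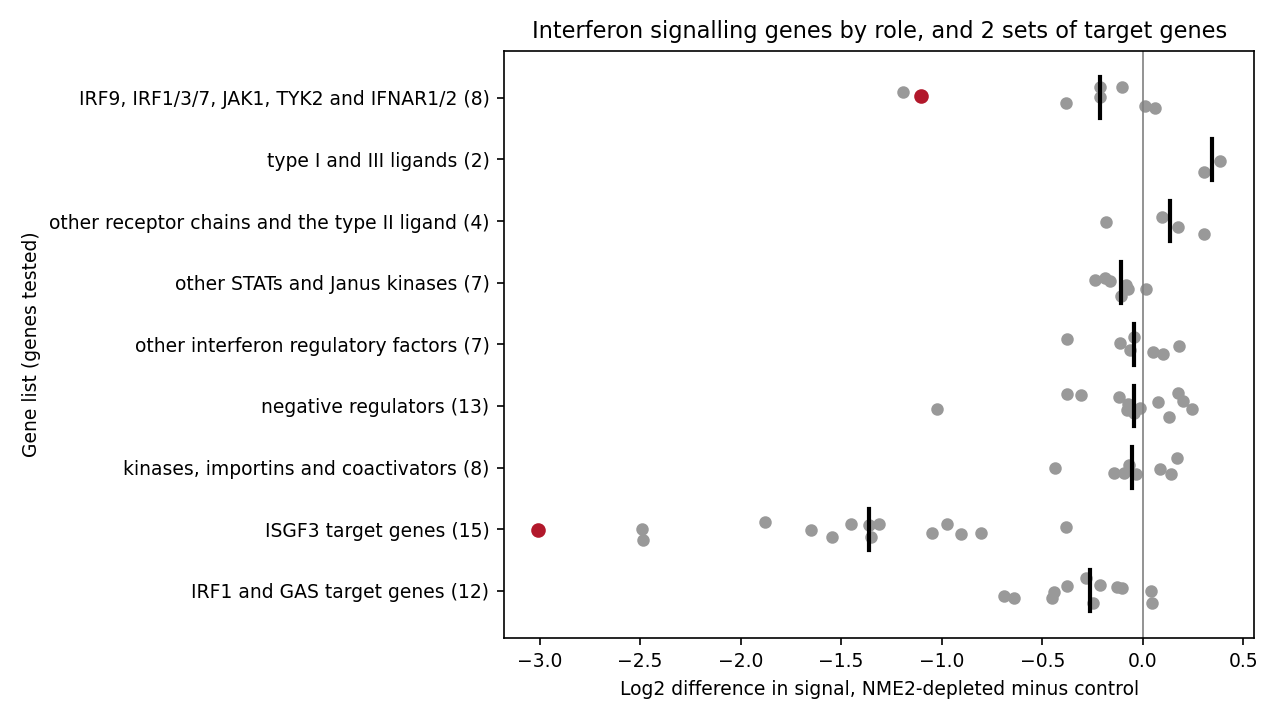
Log2 differences, NME2-depleted minus control, of genes grouped by their role in interferon signalling, and of 2 sets of target genes. Each point is a gene's brightest tested probe set, red points passed a limma adjusted p of 0.05 and black bars are medians. The ISGF3 targets lie between -3.01 and -0.38, left of most signalling genes, and the IRF1 and GAS targets between -0.69 and 0.05.

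Known targets of the pathway were read beside its members. Of 22 ISGF3 targets 15 passed the filter, all 15 with the lower mean in NME2-depleted cells, and their median was -1.36. These genes were among those already known to be lower in these samples, so the count adds no separate evidence. MX1, an antiviral GTPase, fell (limma adjusted p = 0.0379), the only 1 of the 15 past the threshold, where 0.54% of all tested genes were. An unadjusted p under 0.05 was found for 14 of the 15 and for 15% of all tested genes. IFI44 passed the filter through the control group alone, with depleted signals of 62.7, 31.0 and 36.3, so that its lower mean was in part set by the filter. The count of ISGF3 targets past the limma threshold was 0 without NME2-depleted replicate 1, 2 or 3 or control replicate 3. It was 3 without control replicate 1. Over all tested genes the same fits called, in this order, 11, 20, 10, 14 and 33 lower and 3, 4, 1, 6 and 10 higher. MX1 had 145, 145 and 112 in NME2-depleted cells and 3299, 531 and 698 in control cells, a difference of -3.01 (SE 0.51), or -2.19 without control replicate 1. IFIT2 and OAS1, an RNA-binding protein and an activator of RNase L, had -1.35 and -1.55 (adjusted p = 0.0625 and 0.0677), and -0.997 and -1.06 without control replicate 1. All 15 were higher in control replicate 1 than in the mean of the other control arrays, by a median of 1.64 on the log2 scale, and without that array the median difference was -0.92. Of 20 targets of IRF1 and GAS-binding STATs 12 passed the filter. By limma 0 of the 12 passed the threshold and 3 had an unadjusted p under 0.05, against 0.54% and 15% of all tested genes. Their median was -0.26, and without control replicate 1 it was -0.07. APOL1, TAP2 and PSMB8, an apolipoprotein that lyses trypanosomes, a peptide transporter and an immunoproteasome subunit, had -0.69, -0.44 and -0.25 (adjusted p = 0.243, 0.35 and 0.368), and -0.59, -0.25 and -0.17 without control replicate 1. The ISRE core was found in 18 of 25 promoter windows of the ISGF3 targets and 11 of 17 windows of the IRF1 and GAS targets. The GAS core was found in 7 of 25 and 7 of 17. Of all windows 3.57% held the ISRE core and 7.66% the GAS core. The windows came from 18 of the 22 ISGF3 targets and 14 of the 20 others, including genes under the filter. Since the lists hold known targets of factors that bind these elements, a high share was built in by the choice.

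The 5 genes whose levels ran most like IRF9 over the 6 arrays were in none of the lists of pathway or target genes, although APOL1, one of the IRF1 and GAS targets, ranked 9 (0.979). Among 12405 other genes the highest Pearson correlations of log2 signal with IRF9 were those of IGBP1 (0.997), TIMM13 (0.996), CBX7 (0.995), NPC1 (0.992) and KLHDC3 (0.984). IGBP1 binds the catalytic subunit of protein phosphatase 2A, TIMM13 is a chaperone of mitochondrial import, CBX7 a Polycomb protein and NPC1 a cholesterol transporter. They were high in control replicates 1 and 3 and lower in replicate 2, as IRF9 was, with much smaller differences between groups, from -0.53 for CBX7 to -0.17 for IGBP1. With 6 arrays and so many genes compared such values are a description only. Of the members IRF7 was the nearest to IRF9 (0.928, rank 115), followed by TYK2 (0.895, rank 234) and IRF3 (0.749, rank 988), and IFNAR2 was the farthest (-0.31).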

How the data were processed

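Total RNA from 3 NME2-depleted and 3 control samples of A549 cells was labelled by the authors and hybridised to 1 HG-U133 Plus 2.0 array each. Groups and replicate numbers came from the titles. Separate cultures are not described, so the spread behind each p-value may be technical. The deposited table gives, for each probe set, a linear intensity (the array signal) made by the authors with GCOS, version 1.1.1 in the submitters' processing notes. The authors had scaled the arrays: the mean after trimming 2% at each end was 500.06 to 500.07 on all 6, which removes any change common to all transcripts. Detection calls were left unused, and the number of arrays limits the precision.

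Before the fit 62 control probe sets (AFFX) were removed. Signals under 1 (0.327% of values) were set to 1, log2 was taken, and probe sets at or above the median mean log2 signal were tested (27307 of 54613). limma 3.58.1 in R 4.3.3 was used (lmFit, eBayes with an intensity trend), with Benjamini-Hochberg adjustment over all tested probe sets, two-sided, at 0.05. It was tested on simulated data with 200 of 27307 probe sets changed. There it recovered 18% of 1.5-fold, 60% of 2-fold and 92.5% of 4-fold changes, and 2.70%, 4% and 2.63% of calls were false. A probe set that did not pass may thus still have changed. Gene names came from the platform annotation of 2016, which gives 1 symbol for 41091 probe sets. Each gene was taken at its brightest tested probe set. Array gene positions are not given, since no build is named.

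Members and gene lists were chosen with earlier results of these data known. Named genes were all members, up to 4 genes of lowest p in each list of other signalling genes, 3 in each target list, the 5 most like IRF9, and NME2. The other genes named (KRT18, PTPRC, CD14, CD79A, IFNB1, IFNL1, IFNG, SOCS1, EPCAM, CDH1, KRT7, KRT8, STAT5B and IFI44) were chosen after their values were seen. Alternatives were other normalizations, an offset, filters and variance models, weights per array, a block for the replicate number, leaving out single arrays, the t-test named in the methods, and averaged probe sets per gene.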

Additional observations from a re-analysis of the deposited data

How the results depend on the processing

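The difference of IRF9 stayed between -1.37 and -0.91 under all 18 alternatives. Its call, the only 1 among the members, was lost (0 calls) with no filter, no intensity trend, robust variances, array weights and the methods' t-test, where 4 or 5 member probe sets had an unadjusted p under 0.05, and with single arrays left out the member count ranged from 0 to 1. The members' median was -0.16 without probe sets ending in _x_at or _s_at, -0.27 when a gene's probe sets were averaged, and -0.27 to -0.17 with single arrays left out. Over all probe sets 108 passed, and 30 with no filter, 192 with a filter at the 75th percentile, 61 without _x_at and _s_at probe sets, 0 with no intensity trend (3130 at an unadjusted p under 0.05), 0 by the methods' t-test (3065 at that threshold) and 19 to 70 with single arrays left out. Median centring of the arrays gave 107 lower and 20 higher, against 76 and 32. For the ISGF3 targets the count went from 1 to 3 with centring and to 2 without _x_at and _s_at probe sets. It was 0 with no filter, a filter at the 75th percentile, no trend, robust variances, the methods' t-test or the mean of probe sets. With single arrays left out it ranged from 0 to 3. Over all tested genes 67 passed lower and 14 higher with centring, and 34 and 13 without _x_at and _s_at probe sets. The cause of these changes was not tested. Same-numbered arrays deviated together only weakly (correlations of 0.114, 0.0805 and 0.0702), although more than differently numbered ones, which had -0.0842 to 0.00531. The numbers were not taken as pairs in the main fit, and whether they mark pairs was not tested. With the replicate number as a block, 464 probe sets, 1 member probe set, 8 ISGF3 targets, 1 other signalling gene (CREBBP) and 0 IRF1 and GAS targets passed. Of all 12406 genes tested in that fit 177 passed lower and 107 higher. The list of IRF1 and GAS targets had 0 calls under every alternative run.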
